A study of Mus musculus with 7 samples.

Results

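The 10 long noncoding RNAs of neural tissue or of nuclear bodies described here were measured in RNA-seq libraries of the neonatal mouse dorsal midbrain. The members were chosen by symbol: *Malat1*, *Neat1*, *Miat*, *Snhg11*, *Rmst*, *Sox2ot*, *Pantr1*, *Dlx6os1*, *Oip5os1* and *Tug1*. These 10 symbols matched 11 of the 52636 gene identifiers in the count files, because *Dlx6os1* names a second, short entry that had 0 counts. *Oip5os1* (also called Cyrano) is listed in GENCODE as 1700020I14Rik. The tissue came from 3 control mice, Brn3b flox/+ with En1-Cre (A2 and A6 at P4, A4 at P3), and 4 cKO mice, Brn3b flox/- with En1-Cre (B1 and B8 at P4, B7 and B9 at P2). Both groups therefore carried Cre, which the En1 promoter drives in the midbrain and anterior hindbrain, and controls kept an intact *Brn3b* allele. The comparison asks which transcripts differed when *Brn3b* (*Pou4f2*), a POU-domain transcription factor of midbrain and retinal neurons, was removed.

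Long noncoding RNAs are transcribed and spliced much like mRNAs but carry no long open reading frame. *Malat1* gathers in nuclear speckles, bodies rich in splicing factors, and *Neat1* is the scaffold on which paraspeckles form. *Miat* (Gomafu) is held in neuronal nuclei through repeats that bind splicing factors, whereas *Oip5os1* carries a site for miR-7, a microRNA of neurons and endocrine cells. *Sox2ot*, *Pantr1* and *Dlx6os1* lie beside or across genes of neural transcription factors, *Rmst* is a microRNA host of neural tissue, *Snhg11* is a host of small nucleolar RNAs, and *Tug1* is a broadly expressed RNA of the nucleus and cytoplasm.

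Libraries were made from poly(A)-selected RNA, with 23588248 to 87572085 counts assigned to genes in each. *Brn3b* itself fell from 46.6 ± 0.824 CPM (counts scaled to library size; SD, n = 3) in controls to 10.4 ± 0.920 CPM (SD, n = 4) in cKO mice, which was the only call among 21817 genes tested (edgeR, adjusted p = 5.66e-04, 0.00458% of genes called). In *Brn3b* all 4 cKO libraries, B8 included, lay between 9.65 and 11.6 CPM. Across all genes, however, B8 stood with the controls: the leading principal component (60.1% of the variance) placed B8 at -42.2, controls at -81.2 to -33.3 and the other cKO libraries at 49.4 to 78.7. Without B8, edgeR called 9867 genes (46.7%), of which 23.7% of genes tested were higher and 23.1% lower in cKO mice. The fold changes of the members are therefore given with and without B8. B8 was singled out by its place in these same data, as the cKO library nearest the controls. Adjusted p-values and non-overlap of groups without B8 follow from that choice and are no independent test of genotype. All 12 midbrain markers were measured, at a summed 678 to 892 CPM. Control A4 also held more of some forebrain transcripts than the other libraries, with *Dlx1* at 3.40 CPM against at most 0.219 CPM elsewhere. In bulk tissue, fewer cells of a type and less RNA per cell cannot be told apart.

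The sequences that set these RNAs apart are shown first. *Malat1* (chr19:5795690-5802672) and *Neat1* (chr19:5824708-5845478) are neighbours on the minus strand of GRCm38, and the ends of their long forms are known to be protected by a U-rich element that folds onto a run of A rather than by a poly(A) tail. The last 500 bases of both longest transcripts in GENCODE vM21 shared a stretch of 16 bases followed by a run of A, and both are in capitals below, as DNA letters. The run of A was 12 bases long in *Malat1*, 18 bases after the shared stretch and 298 bases before the annotated end. It was 5 bases long in *Neat1*, 32 bases after the stretch and 6 bases before the end.
Malat1, chr19:5795982-5796039, minus strand: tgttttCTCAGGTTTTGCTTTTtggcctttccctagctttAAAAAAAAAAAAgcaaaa
Neat1, chr19:5824708-5824772, minus strand: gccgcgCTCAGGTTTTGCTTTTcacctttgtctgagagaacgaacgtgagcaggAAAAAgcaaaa

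*Oip5os1* (chr2:119594297-119607502, plus strand) held 2 matches to the miR-7a-5p seed, bases 2 to 8 of the microRNA, in its longest transcript. Of GENCODE transcripts of 1000 bases or more, 22.7% held at least 1. At one of the matches the pairing went far beyond the seed: after 2 extra bases in the RNA, 13 of the last 14 bases of miR-7a-5p also found their complement. Capitals in the site mark the match to the seed and the bases that pair with the last 14 of the microRNA, and capitals in the microRNA (RefSeq, GRCm38.p6) mark its seed.
Oip5os1 site, chr2:119602137-119602161, plus strand: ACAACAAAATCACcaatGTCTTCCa
miR-7a-5p: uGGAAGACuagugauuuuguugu

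*Miat* (chr5:112213228-112229395, minus strand) is known for repeats of ACTAAC, the sequence that splicing factor SF1 reads at intron branch points. Its longest transcript held 11 of them. Of 7039 other GENCODE transcripts of 5000 bases or more, 12 (0.17%) held as many, with a median of 1, and *Neat1* held 4 in a transcript of 20771 bases. The cluster of 4 within 200 bases of *Miat* is shown with each repeat in capitals.
Miat, chr5:112217314-112217454, minus strand: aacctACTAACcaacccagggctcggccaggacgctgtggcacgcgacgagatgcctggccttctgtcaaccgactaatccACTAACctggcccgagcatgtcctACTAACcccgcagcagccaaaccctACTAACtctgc

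*Rmst* (chr10:92071037-92165170, minus strand) is the host of miR-135a and miR-1251, both in its introns, since their hairpins shared 0 bases with its exons. The mature 5′ arms are shown with the seed in capitals (RefSeq, GRCm38.p6), and the seeds differ. Libraries of this kind do not measure mature microRNAs.
miR-135a-5p, chr10:92072141-92072163, minus strand: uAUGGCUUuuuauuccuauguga
miR-1251-5p, chr10:92137190-92137210, minus strand: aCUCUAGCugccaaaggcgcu

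The name "abundant" held for some of these RNAs only. *Malat1* and *Snhg11* ranked 13 and 14 by CPM among 21817 genes tested, with means of 2793 and 2564 CPM over the 7 libraries. *Malat1* made up 0.207% to 0.339% of the counts on genes, and the 10 members together 0.528% to 0.771%. *Malat1*, *Miat* and *Oip5os1* stood at places 2, 4 and 5 among 2624 long noncoding genes tested, whose median was 0.863 CPM against 22.9 CPM for 15513 protein-coding genes. *Snhg11* is annotated as protein-coding in GENCODE and is not in that ranking. *Dlx6os1*, at the other end, had 22 counts in all and did not pass the count filter of the main edgeR fit. DESeq2 gave it a log2 fold change of -2.925 ± 1.756 (SE, unadjusted p = 0.0958) but no adjusted p-value.

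Compared per kilobase of exon, a scale on which levels of different genes can be set side by side, the order ran from *Malat1* down to *Dlx6os1*. *Malat1* averaged 400.0 ± 63.1 CPM per kilobase (SD, n = 7) and *Snhg11* 301 ± 35.5, and their ranges over libraries overlapped. *Oip5os1* (64.7 ± 23.7) and *Miat* (63.8 ± 12.4) also overlapped each other and lay below *Snhg11* in every library. *Tug1* followed at 20.7 ± 5.37 CPM per kilobase, apart from both neighbours in the order. *Pantr1* (6.15 ± 1.78) and *Rmst* (4.80 ± 0.807) overlapped, *Sox2ot* was lower (2.36 ± 0.208), and *Neat1*, spread over 20.8 kilobases of exon, stood at 0.995 ± 0.288. *Dlx6os1* was at 0.0140 CPM per kilobase. With the longest transcript as the length, *Snhg11* moved above *Malat1* (437 against 400.0 CPM per kilobase). Levels by that length were also higher for *Tug1* (29.98), *Pantr1* (13.1), *Rmst* (12.3) and *Sox2ot* (7.84), with the order below *Snhg11* and *Malat1* unchanged. *Neat1* stayed at 0.995, since its longest transcript is as long as all its exons together. Its level by the length of a shorter transcript was not tested. How well poly(A) selection captured ends such as those of *Malat1* and long *Neat1* was not tested.

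**Figure D1:**
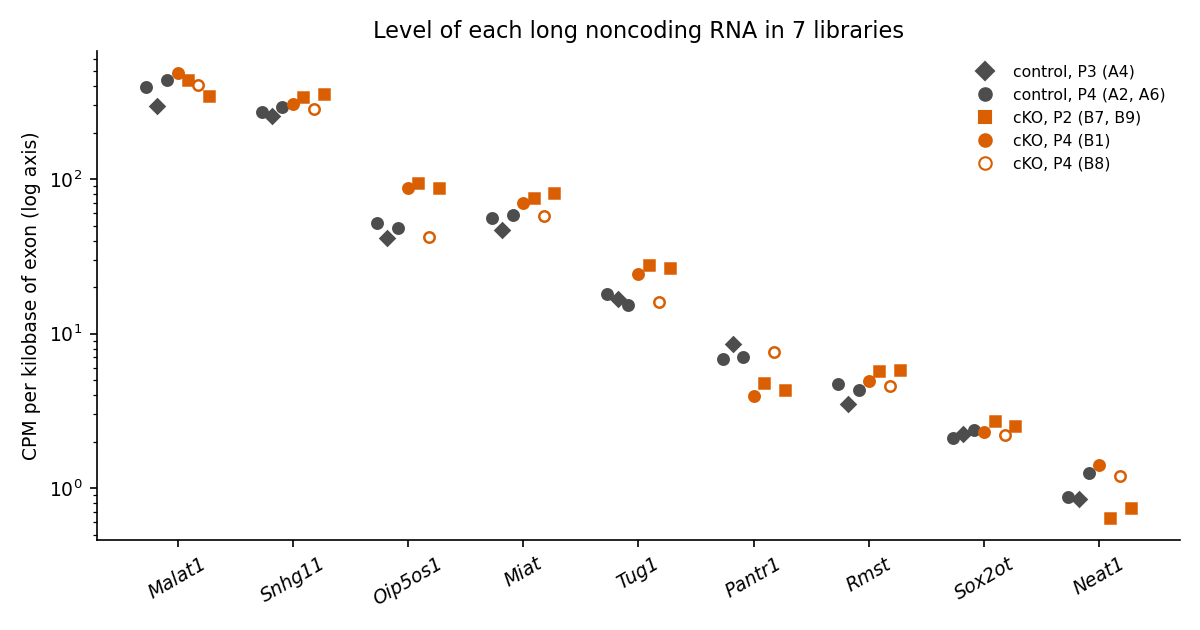
CPM per kilobase of exon (log axis) of 9 long noncoding RNAs in each of 7 libraries, with controls in grey, cKO libraries in orange, B8 as an open circle and the marker shape giving the age. Levels fell from 400.0 for *Malat1* to 0.995 for *Neat1*; *Dlx6os1*, with 0 counts in 3 libraries, cannot be drawn on a log axis and is left out.

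In all 7 libraries, edgeR called 0 of the 9 members tested, and 4 had an unadjusted p below 0.05, as did 6633 of 21817 genes. The values of *Malat1*, *Neat1*, *Miat*, *Snhg11*, *Rmst*, *Sox2ot*, *Pantr1*, *Oip5os1* and *Tug1* overlapped between control and cKO libraries, whereas 14.0% of all genes tested did not overlap. DESeq2, which called 10.4% of genes, called 0 members as well, with 4 at an unadjusted p below 0.05 beside 6739 of 19092 genes. limma-voom with sample quality weights, which gave B8 a weight of 0.167, called 6 members in the same 7 libraries, 5 higher and 1 lower, beside 48.5% of genes. Without B8, 6 members were called, 5 higher and 1 lower, beside 46.7% of all genes. The same 6 did not overlap between the groups once B8 was left out, where 56.2% of genes did not. Since such a large part of all genes was called without B8, these calls do not set the members apart from other genes.

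*Oip5os1* had the highest fold change of the members in counts not corrected for GC content and length. Its level was 432, 344 and 404 CPM in controls A2, A4 and A6, and 722, 786, 350 and 724 CPM in cKO libraries B1, B7, B8 and B9. B1, B7 and B9 lay far above every control and B8 lay within the control range. The log2 fold change was 0.72 ± 0.25 (SE, edgeR, adjusted p = 0.138) with B8 and 0.92 ± 0.11 (adjusted p = 9.75e-05) without it.

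*Tug1* followed the same libraries. It stood at 176, 163 and 149 CPM in A2, A4 and A6, and at 235, 271, 155 and 260 CPM in B1, B7, B8 and B9. B8 again fell inside the controls while the other cKO libraries exceeded them. Its log2 fold change was 0.50 ± 0.19 (SE, edgeR, adjusted p = 0.140), and 0.65 ± 0.11 (adjusted p = 4.83e-04) without B8.

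*Miat* was measured at 522, 433 and 541 CPM in A2, A4 and A6, and at 654, 702, 536 and 760.0 CPM in B1, B7, B8 and B9. The highest control was just above B8 and below the remaining cKO libraries. The log2 fold change was 0.41 ± 0.15 (SE, edgeR, adjusted p = 0.138), and 0.50 ± 0.11 (adjusted p = 0.00363) without B8.

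*Rmst* and *Snhg11* moved less. *Rmst*, which works with Sox2 in neurogenesis, was at 34.9, 25.9 and 32.2 CPM in controls and 36.5, 42.8, 34.1 and 42.9 CPM in B1, B7, B8 and B9. *Snhg11* was at 2318, 2194 and 2493 CPM in controls and 2602, 2903, 2418 and 3020 CPM in the cKO libraries in the same order. For both, B1 was only slightly above the highest control and the P2 libraries were higher still. Without B8 their log2 fold changes were 0.40 ± 0.14 (SE, edgeR, adjusted p = 0.0293) and 0.28 ± 0.10 (adjusted p = 0.0429), against 0.34 ± 0.16 (adjusted p = 0.173) and 0.23 ± 0.12 (adjusted p = 0.222) with it.

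*Pantr1* was the one member called lower without B8 in counts not corrected for GC content and length. Controls held 30.4, 37.9 and 31.5 CPM, and cKO libraries 17.5, 21.3, 33.9 and 19.2 CPM in B1, B7, B8 and B9. B8 was above 2 of the controls and the 3 other cKO libraries were below all of them. The log2 fold change was -0.54 ± 0.23 (SE, edgeR, adjusted p = 0.153) with B8 and -0.78 ± 0.14 (adjusted p = 6.17e-04) without it.

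*Malat1* and *Sox2ot* did not separate the groups with or without B8. *Malat1* ranged from 2090 CPM in A4 to 3062 CPM in A6 among controls and from 2391 CPM in B9 to 3394 CPM in B1 among cKO libraries. *Sox2ot* ranged from 24.6 to 27.5 CPM in controls and from 25.6 to 31.7 CPM in cKO libraries, the narrowest spread of the 9. Their log2 fold changes were 0.15 ± 0.17 (SE, edgeR, adjusted p = 0.550) and 0.12 ± 0.14 (adjusted p = 0.556), and without B8 0.16 ± 0.16 (adjusted p = 0.420) and 0.16 ± 0.12 (adjusted p = 0.303).

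Age bears on these values, since B7 and B9, which make up 2 of the 3 cKO libraries left without B8, were from P2 and no control was. Between controls and the P4 cKO libraries B1 and B8, the log2 fold change was 0.45 for *Oip5os1*, 0.26 for *Tug1*, 0.26 for *Miat*, 0.19 for *Rmst*, 0.11 for *Snhg11* and -0.36 for *Pantr1*, and edgeR called none of them (adjusted p from 0.667 to 0.732) and 1 of 21002 genes (0.00476%). With P4 libraries alone it was 0.36, 0.26, 0.16, 0.077, 0.062 and -0.26 in the same order (adjusted p = 0.989 for each). That fit called 0 of 20702 genes (0.0%), and *Brn3b* itself did not pass at -2.18 (adjusted p = 0.192), so the missing calls say nothing about the members. All 6 kept their direction. B8 is 1 of the P4 cKO libraries in both of these fits. The P2 libraries B7 and B9 were also the deepest, with 67792192 and 87572085 counts on genes against 23588248 to 40411968 in the others. Their share of reads without a unique alignment was lower (8.14% and 8.33% against 9.76% to 11.09%). Age, depth and genotype cannot be told apart in the P2 libraries.

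**Figure D2:**
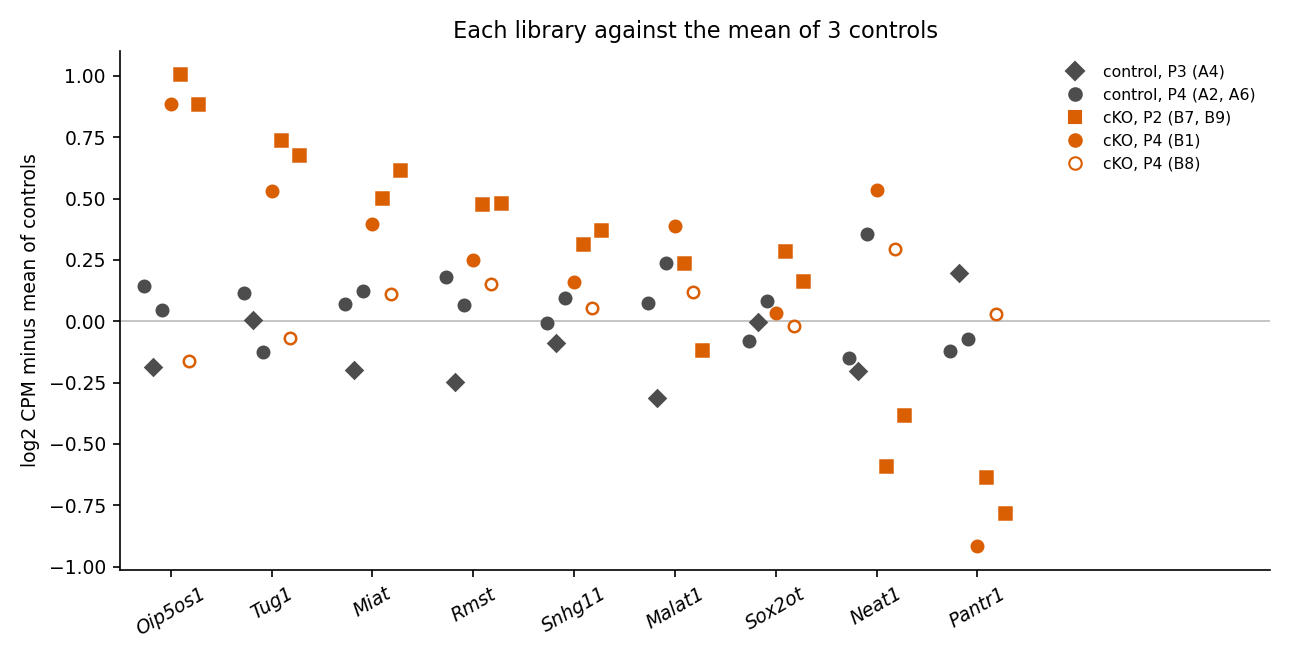
log2 CPM of 9 long noncoding RNAs in each library minus the mean of the 3 controls, with symbols as in the plot of levels. B8 (open circle) lies between -0.16 and 0.30 for every RNA, while B1, B7 and B9 lie at 0.88 to 1.01 for *Oip5os1* and at -0.92 to -0.64 for *Pantr1*.

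*Neat1* was lowest in the P2 libraries, though the test between the ages of the cKO mice did not pass. It was at 18.2, 17.5 and 25.9 CPM in controls, at 29.3 and 24.8 CPM in the P4 cKO libraries B1 and B8, and at 13.4 and 15.5 CPM in the P2 cKO libraries B7 and B9. With all 7 libraries the log2 fold change was 0.01 ± 0.28 (SE, edgeR, adjusted p = 0.981), and without B8 -0.10 ± 0.26 (adjusted p = 0.788). Split by the age of the cKO mice it was 0.40 ± 0.21 (adjusted p = 0.667) for P4 cKO mice against controls and -0.53 ± 0.19 (adjusted p = 0.0378) for P2 cKO mice against the same controls. Against P2 cKO mice 46.9% of all genes were called, so this call is not particular to *Neat1*. In a fit with 3 groups, added after the values were seen, P4 cKO mice exceeded P2 cKO mice by 0.91 ± 0.22 in log2 *Neat1* (edgeR, adjusted p = 0.09998). That contrast called 0.0% of genes, with 5459 of 21817 at an unadjusted p below 0.05. No control was taken at P2, and the P2 libraries were the deepest, so age, depth and genotype cannot be told apart there. The microglia marker list, with 6 of 6 genes measured, was also lowest in the P2 libraries, at a summed 92.8 to 123 CPM in controls, 92.1 and 98.5 CPM in B1 and B8, and 74.5 and 77.4 CPM in B7 and B9. So were the oligodendrocyte lineage list (381 to 437 CPM in controls, 449 and 450.2 CPM in B1 and B8, 362 and 323 CPM in B7 and B9), the astrocyte and radial glia list (2191 to 2510, 2148 and 2237, 1868 and 1626 CPM) and the red blood cell list (118 to 452, 162 and 157, 57.0 and 52.8 CPM). The part of these cells in the *Neat1* values was not tested.

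*Dlx6os1* (Evf2), antisense to *Dlx6* and a transcript of forebrain GABAergic precursors, was near absent. Its 22 counts fell as 0, 16 and 1 in controls A2, A4 and A6, and as 0, 0, 1 and 4 in B1, B7, B8 and B9. A4 was the highest at 0.400 CPM, and B9, at 0.0470 CPM, lay just above its floor of 3 counts (0.0353 CPM). A count of 0 allowed up to 0.124 CPM in A2, 0.107 CPM in B1 and 0.0466 CPM in B7, which covers counting error only. Of the forebrain GABAergic markers, the transcription factor genes *Dlx1* (3.40 CPM), *Dlx2* (0.375 CPM), *Dlx5* (0.275 CPM), *Dlx6* (0.225 CPM) and *Lhx6* (4.25 CPM) were highest in A4. In contrast, *Six3* (10.89 CPM) and *Gad2* (93.8 CPM) were lowest there, *Sp8* and *Sp9* were at 0, and *Gad1* (283 CPM) lay within the other libraries. All 11 markers of the list were measured, and their sum was 398 CPM in both A4 and A2 and 411 to 595 CPM in the other libraries. All 6 telencephalic excitatory markers were measured, and they summed to 43.0 CPM in A4 and to 16.9 to 25.1 CPM in the other libraries. Leaving out A4, as leaving out any other library than B8, left 0 members called.

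The fold changes were related to the base composition and length of genes, and this touches every member. GC content was taken from the longest transcript and length from all exons, here and in the correction below. The longest transcript held 2085 of 4458 exon bases for *Pantr1*, 2891 of 7423 for *Rmst* and 3486 of 11594 for *Sox2ot*. Without B8, the median log2 fold change of all genes tested, cut into 4 equal bins, went from 0.30 in the bin of lowest GC content to -0.41 in the highest, and from -0.46 in the bin of shortest exon length to 0.43 in the longest. All of *Malat1*, *Neat1*, *Miat*, *Snhg11*, *Rmst*, *Sox2ot*, *Oip5os1* and *Tug1* had more exon sequence than 83.0% of genes tested. *Tug1* (37.9% GC) and *Oip5os1* (39.9% GC) were also among the genes of lowest GC content. *Miat*, with 55.1% GC, had more than 80.6% of genes, and its GC bin had a median of -0.41 while its length bin had a median of 0.43, beside 0.50 for *Miat* itself. *Pantr1*, with 44.9% GC and 4458 bases of exon, fell from bins whose medians were 0.18 and 0.02.

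**Figure D3:**
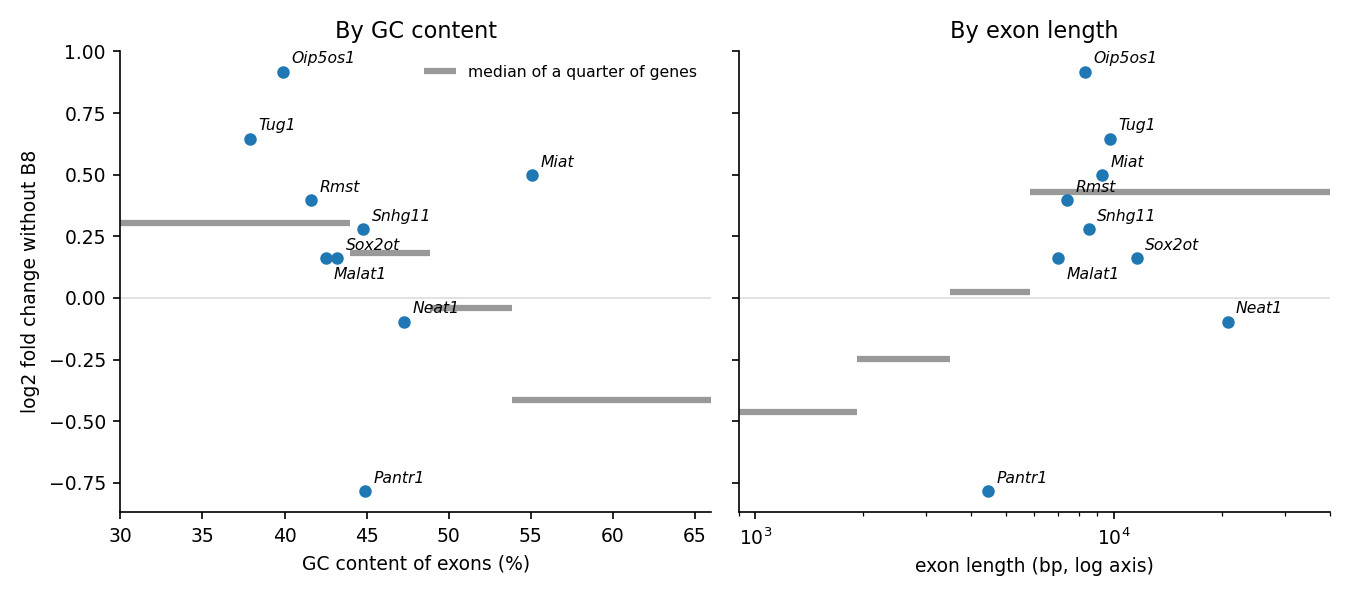
log2 fold change without B8 of 9 long noncoding RNAs (blue) against GC content of the longest transcript and against length of all exons (log axis), with the median of all genes tested in each of 4 equal bins as a grey bar, cut at the edge of the plot. *Miat* lies at 0.50 where the medians are -0.41 by GC content and 0.43 by length, and *Pantr1* at -0.78 where the medians are 0.18 and 0.02.

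A smooth trend of GC content and exon length was therefore removed from each library. With all 7 libraries the correction left 0 members and 0.00458% of genes called, and turned *Tug1* (-0.070 ± 0.11), *Rmst* (-0.047 ± 0.12), *Snhg11* (-0.18 ± 0.11), *Malat1* (-0.19 ± 0.17), *Sox2ot* (-0.40 ± 0.16) and *Neat1* (-0.49 ± 0.37) to values below 0. Corrected and without B8, a setting added after the data were seen, 33.7% of genes and 6 members were called. The members called without B8 both before and after the correction, in the same direction, were *Oip5os1* at 0.33 ± 0.09 (SE, edgeR, adjusted p = 0.0131), *Miat* at 0.31 ± 0.11 (adjusted p = 0.0439) and *Pantr1* at -1.01 ± 0.14 (adjusted p = 2.34e-04). *Snhg11* turned to -0.26 ± 0.09 (adjusted p = 0.0475), and *Sox2ot* (-0.54 ± 0.12, adjusted p = 0.00354) and *Neat1* (-0.85 ± 0.28, adjusted p = 0.0337) fell. *Tug1* (-0.068 ± 0.11), *Rmst* (-0.12 ± 0.11) and *Malat1* (-0.30 ± 0.15) did not pass the threshold.

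**Figure D4:**
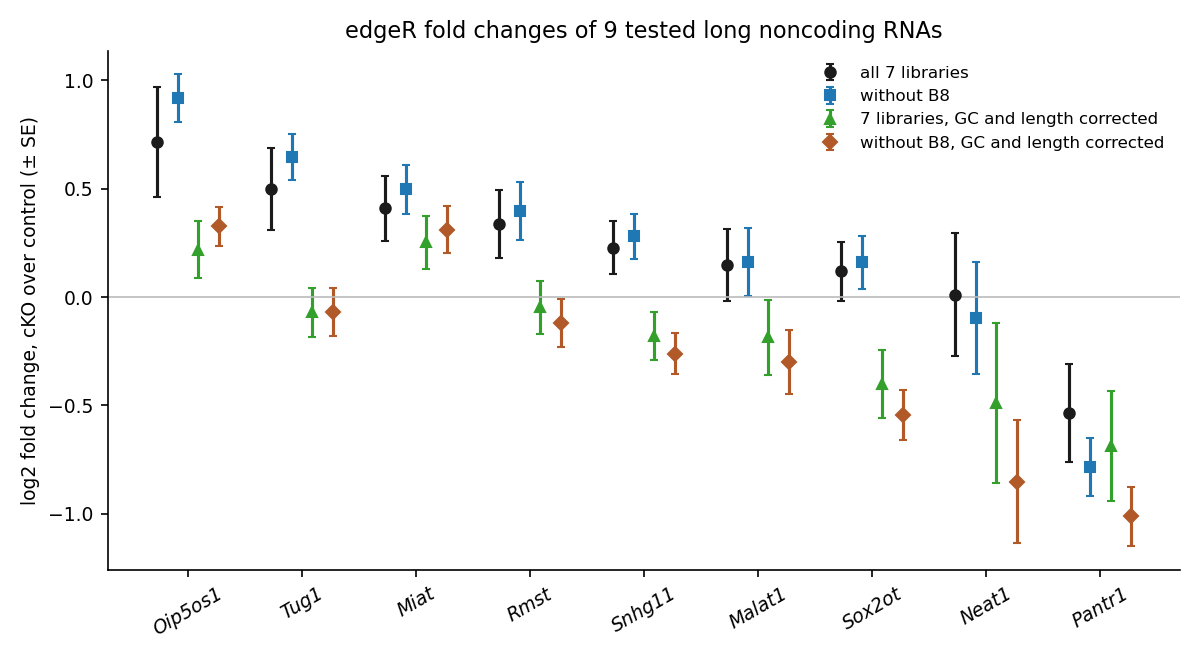
log2 fold change, cKO over control, with its standard error, for 9 long noncoding RNAs in 4 edgeR fits: 7 libraries or 6 without B8, each as counted and after the correction for GC content and exon length. *Oip5os1* and *Miat* stay above 0 and *Pantr1* below 0 in all 4 fits, while *Tug1* goes from 0.65 to -0.068 without B8.

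Promoters of 6 members were in the RefSeq table (250 bases before to 50 after the start). They are shown for *Oip5os1* and *Miat*, the RNAs that stayed above 0 in each of these fits; *Pantr1* had no entry. ATTAAT, the core of sites that Brn3 factors bind, was searched on both strands and was in neither, nor in the entries of *Tug1*, *Snhg11* and *Malat1*. Of the 2 entries of *Dlx6os1*, 1 held it 1 time, and 4.7% of 32851 promoters did. The GC box GGGCGG, in capitals here on either strand, occurred 2 times in *Oip5os1* and once in *Miat*, and in 35.7% of all promoters. CCGGAAG (8.9% of all promoters) and TATAAA (13.6%) were not found in either, while TATAAA occurred 2 times in the same *Dlx6os1* entry.
Oip5os1 promoter, chr2:119594046-119594345, plus strand: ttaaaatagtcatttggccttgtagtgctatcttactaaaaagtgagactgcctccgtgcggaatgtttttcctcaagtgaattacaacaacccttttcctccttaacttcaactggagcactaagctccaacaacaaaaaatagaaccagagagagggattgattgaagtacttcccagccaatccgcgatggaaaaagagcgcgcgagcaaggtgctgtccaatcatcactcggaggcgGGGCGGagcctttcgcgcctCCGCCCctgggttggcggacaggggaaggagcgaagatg
Miat promoter, chr5:112228899-112229198, minus strand: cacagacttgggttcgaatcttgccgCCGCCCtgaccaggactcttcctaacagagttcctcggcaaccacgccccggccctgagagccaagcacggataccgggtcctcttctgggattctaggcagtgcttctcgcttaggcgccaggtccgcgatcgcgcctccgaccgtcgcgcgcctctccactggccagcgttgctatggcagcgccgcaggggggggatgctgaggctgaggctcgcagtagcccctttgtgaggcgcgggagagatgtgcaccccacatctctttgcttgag

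Genes beside the members did not move uniformly with them. Without B8, 46.7% of all genes were called, with 23.7% of genes tested higher and 23.1% lower. A call of a neighbour in that fit, in either direction, therefore does not set it apart from other genes. *Pantr1* lies 926 bases from *Pou3f3* (Brn1), a neural POU-domain factor on the opposite strand, which was at 92.6, 81.4 and 87.1 CPM in controls and 112, 132, 88.4 and 136.5 CPM in B1, B7, B8 and B9. *Pou3f3* was thus higher in the libraries where *Pantr1* was lower (log2 fold change without B8 0.54, edgeR, adjusted p = 0.00192). *Oip5*, 2010 bases from *Oip5os1* on the opposite strand, was at 2.23 to 2.53 CPM in controls, 2.32 CPM in B8 and 0.978 to 1.10 CPM in B1, B7 and B9, against the direction of *Oip5os1* (-1.19 without B8, adjusted p = 0.00423). *Chp1*, 7270 bases from *Oip5os1* on the same strand, went the other way, at 42.6 to 45.5 CPM in controls and 46.4 to 54.7 CPM in all cKO libraries. Its groups did not overlap, as for 14.0% of all genes (0.26 without B8, adjusted p = 0.0540). Beside *Rmst*, *Tmpo* (0.51, adjusted p = 0.00353) and *Nedd1* (0.49, adjusted p = 0.0260) were higher without B8, as *Rmst* was. *Morc2a*, which shares 483 bases of exon with *Tug1* on the opposite strand, moved like *Tug1* (0.57 without B8, adjusted p = 0.00305). The kit marks strand, but the strand setting of the counting was not given in the sources used here, so reads of overlapping exons cannot be assigned with certainty. The same holds for 2260 bases of *Miat* exon shared with *Gm26953*, 1955 bases of *Rmst* with *Gm26700* and 453 bases of *Malat1* with *Gm37376*, all on the opposite strand. Short entries on the same strand also overlap member exons, where strand cannot separate the reads. The longest such stretches were 361 bases in *Miat* (*Gm27998*), 272 in *Sox2ot* (RF01953) and 236 in *Tug1* (*Gm27517*).

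*Sox2* lies within *Sox2ot* on the same strand and shares 0 bases of exon with it. It stayed between 53.4 and 60.4 CPM in every library (log2 fold change -0.026, adjusted p = 0.892). *Atp11b*, the nearest protein-coding gene above *Sox2ot* though 1071487 bases away, rose without B8 (0.87, adjusted p = 1.91e-04). Next to *Neat1* and *Malat1*, *Frmd8* was lower without B8 (-0.74, adjusted p = 0.00503). *Ralgapb*, 23703 bases above *Snhg11*, was higher (0.82, adjusted p = 2.80e-04). Corrected for GC content and exon length and without B8, *Oip5* (-1.14, adjusted p = 0.00784) and *Frmd8* (-0.57, adjusted p = 0.0140) were still called lower, beside 33.7% of all genes called. *Pou3f3* (0.26, adjusted p = 0.0629), *Morc2a* (0.30, adjusted p = 0.0588), *Atp11b* (0.23, adjusted p = 0.0692) and *Ralgapb* (0.13, adjusted p = 0.304) no longer passed. Nor did *Tmpo* (-0.14, adjusted p = 0.308) and *Nedd1* (0.25, adjusted p = 0.255). In the fit of all 7 libraries none of the neighbouring genes named here was called by edgeR. DESeq2, beside 10.4% of genes called, called *Atp11b* (adjusted p = 0.0466). DESeq2 also called *Cryba4*, a lens crystallin gene 17098 bases from *Miat*, which was at 1.12 to 1.55 CPM in controls and 0.282 to 0.591 CPM in all 4 cKO libraries (-1.70, adjusted p = 0.00928).

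**Figure D5:**
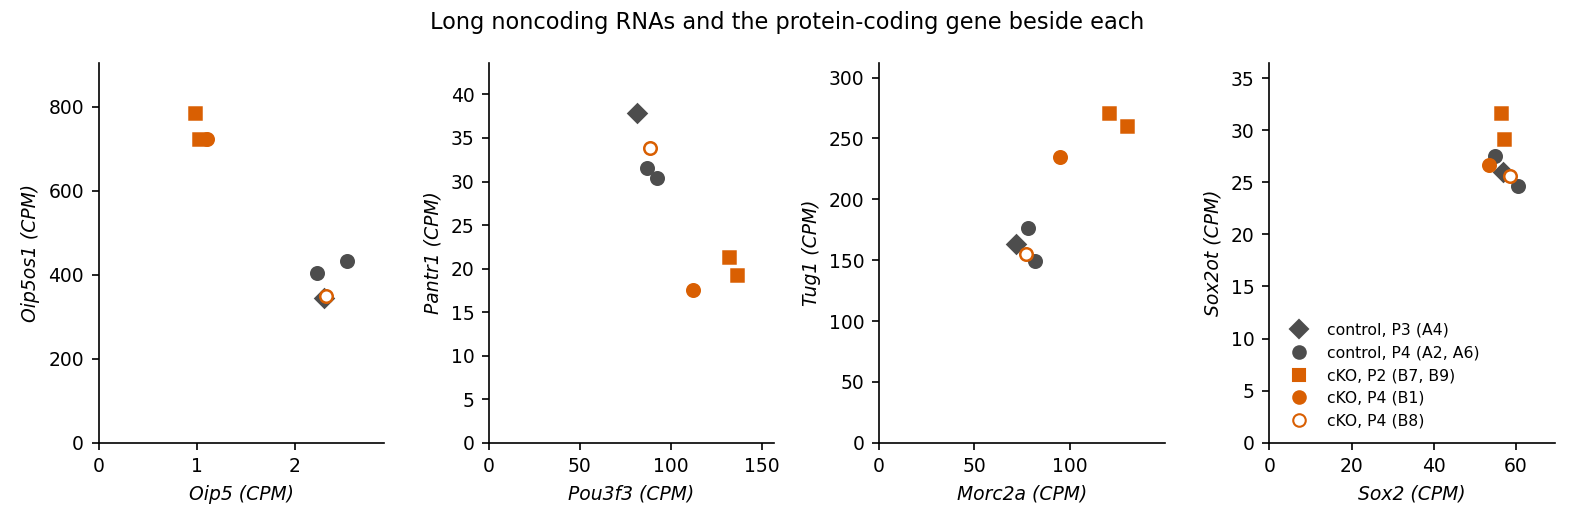
CPM of 4 long noncoding RNAs (vertical axes) against CPM of the protein-coding gene beside or within each (horizontal axes), with 1 point per library and symbols as in the plot of levels. *Pantr1* and *Pou3f3* differ in opposite directions between B1, B7, B9 and the rest, as do *Oip5os1* and *Oip5*, whereas *Tug1* and *Morc2a* rise together and *Sox2* stays within 53.4 to 60.4 CPM.

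Other named long noncoding RNAs gave a mixed picture. Of 42 listed, 40 were in the files and 37 were tested. None passed in edgeR with all 7 libraries, while without B8 7 were higher and 16 lower, beside 46.7% of all genes called, with a median log2 fold change of -0.21 beside 0.28 for the members and -0.004 for all genes tested. Of the listed Snhg genes and *Gas5*, without B8, those lower with all cKO libraries, B8 included, below the controls were *Gas5* (-0.56 ± 0.11), *Snhg6* (-1.09 ± 0.16), *Snhg8* (-1.02 ± 0.14) and *Snhg20* (-1.35 ± 0.18). *Snhg1* (-0.36), *Snhg3* (-0.90), *Snhg12* (-0.69) and *Snhg15* (-0.53) were lower too, while *Snhg17* (0.27, adjusted p = 0.158) and *Snhg18* (-0.54, adjusted p = 0.107) did not pass. *Snhg11* and *Snhg14* (1.11 ± 0.13) were higher, but in the corrected fit without B8 *Snhg11* was lower and *Snhg14* was at -0.080 ± 0.11 (adjusted p = 0.612). In that fit *Gas5* (-0.75), *Snhg6* (-1.05), *Snhg8* (-0.91) and *Snhg20* (-1.12) were again lower, as were *Snhg1* (-0.49) and *Snhg12* (-0.65), whereas *Snhg3* (-0.82, adjusted p = 0.0551) and *Snhg15* (-0.10, adjusted p = 0.743) did not pass. The imprinted *Meg3*, the most abundant long noncoding RNA of these libraries, was at 11310, 13210 and 13530 CPM in controls and 8306, 7990, 13130 and 7419 CPM in B1, B7, B8 and B9 (-0.69 ± 0.11, edgeR, adjusted p = 3.55e-04 without B8). *Sox1ot* (1.12 ± 0.18) was the one RNA of this list with every cKO library, B8 included, above every control. In all, 6 of the 37 did not overlap between groups of all 7 libraries, beside 14.0% of genes. DESeq2 with all 7 libraries called 3 of the 37 higher and 5 lower beside 10.4% of genes, and the corrected fit without B8 4 higher and 16 lower beside 33.7%. In that corrected fit the median of the members turned to -0.26, beside -0.40 for this list and -0.043 for all genes tested.

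Proteins of the nuclear bodies in which *Neat1* and *Malat1* are found were examined next. Of 14 paraspeckle proteins, 0 passed in edgeR or DESeq2 with all 7 libraries, and without B8 5 were higher and 2 lower (median 0.13). *Sfpq*, a core paraspeckle protein, was at 208 to 231 CPM in controls, 214 CPM in B8 and 336 to 453 CPM in the other cKO libraries (0.79 ± 0.12, edgeR, adjusted p = 2.99e-04 without B8). *Nono*, its partner, did not pass (0.26 ± 0.13, adjusted p = 0.111). Of 9 nuclear speckle proteins, edgeR called 0 with all 7 libraries and DESeq2 1 (*Srrm2*, adjusted p = 0.0359), and 4 were higher and 0 lower without B8 (median 0.31), among them the scaffold genes *Srrm2* (0.98 ± 0.13, adjusted p = 1.30e-04) and *Son* (0.41 ± 0.11, adjusted p = 0.00830). These counts stand beside 46.7% of all genes called. After the correction for GC content and exon length, still without B8, 1 paraspeckle protein was higher and 2 lower, and 2 speckle proteins were higher and 2 lower, beside 33.7% of all genes called. In that fit *Son* turned to -0.29 ± 0.10 (adjusted p = 0.0422), *Srrm2* stood at 0.51 ± 0.11 (adjusted p = 0.00306) and *Sfpq* at 0.67 ± 0.11 (adjusted p = 8.17e-04).

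Among 8 reported protein partners of the members, 3 were higher and 0 lower without B8, beside 46.7% of all genes called, and none was called with it by edgeR. *Qk*, which binds the ACTAAC repeats as *Sf1* does, was at 239 to 270 CPM in controls, 243 CPM in B8 and 374 to 483 CPM in the other cKO libraries (0.80 ± 0.12, adjusted p = 2.22e-04 without B8). *Suz12* of the Polycomb complex PRC2 was higher (0.79 ± 0.13, adjusted p = 4.36e-04), as was *Mettl16* (0.38 ± 0.15, adjusted p = 0.0495), a methyltransferase that binds the *Malat1* end. *Sf1* (0.09 ± 0.10), *Celf3* (-0.23 ± 0.10), *Ezh2* (0.26 ± 0.15), *Eed* (-0.21 ± 0.13) and *Sox2* did not pass. After the correction, without B8, 1 partner was higher and 0 lower, beside 33.7% of all genes called: *Suz12* stood at 0.48 ± 0.11 (adjusted p = 0.00616), while *Qk* (-0.0060 ± 0.10, adjusted p = 0.972) and *Mettl16* (-0.35 ± 0.14, adjusted p = 0.0632) did not pass.

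With all 7 libraries edgeR called no marker of a cell type. DESeq2, beside 10.4% of genes, called 2 forebrain GABAergic markers higher and 1 lower, 1 neuron, 1 astrocyte and 1 oligodendrocyte lineage marker higher, and 1 microglia marker lower. Without B8, where 46.7% of genes were called, 2 of 8 neuron markers were higher and 4 lower, 3 of 8 astrocyte and radial glia markers higher and 3 lower, and 1 of 8 oligodendrocyte lineage markers higher and 4 lower. Of the 6 microglia markers 3 were lower, of the 6 endothelial and pericyte markers 4 were higher and 1 lower, and of the 5 red blood cell markers 2 were lower. Among 12 midbrain markers 3 were higher and 1 lower, among 4 forebrain GABAergic markers tested 2 were higher and 1 lower, and among 4 telencephalic excitatory markers 0 were called. With the correction and without B8, 33.7% of genes were called. Of neuron markers 1 was then higher and 5 lower, of astrocyte and radial glia markers 0 and 3. Counts higher and lower were 1 and 1 for oligodendrocyte lineage, 0 and 2 for microglia and 1 and 1 for endothelial and pericyte markers. For red blood cell they were 0 and 1, for midbrain 6 and 2, for forebrain GABAergic 2 and 0, for telencephalic excitatory 0 and 0. Neuron markers summed to 7119 to 8080 CPM in controls and 6567 to 7345 CPM in cKO libraries. The part of cell makeup in the values of the members was not tested.

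The members differed in how closely they followed each other. As the root mean square difference of centred log2 CPM over the 7 libraries, *Miat* and *Rmst* were closest (0.0845), followed by *Snhg11* and *Sox2ot* (0.0857). This measure is not scaled by spread, so RNAs that vary little come out close whatever their pattern. The SD of log2 CPM was 0.262 for *Miat*, 0.233 for *Rmst*, 0.155 for *Snhg11* and 0.1145 for *Sox2ot*. *Pantr1* was 0.481 from the nearest member. Among 12787 genes of at least 5 CPM, the genes closest to *Oip5os1* were *Togaram1* (0.0426) and *Pcdh7* (0.0543), and to *Tug1* *Wdr37* (0.0204) and *Usp28* (0.0334). *Miat* was nearest to *Ppp6r2* (0.0438) and *Zcchc14* (0.0458), and *Rmst* to *Mdm1* (0.0265). For *Snhg11* the nearest were *Ric8b* (0.0165) and *Fastkd1* (0.0225), and for *Sox2ot* *Slc20a1* (0.0223) and *Utp14a* (0.0244). *Pantr1* was most like *Bex2* (0.0548) and *Mrps18a* (0.0654), *Malat1* like *Rab27a* (0.0708) and *Ankrd24* (0.0831), and *Neat1* like *Adgre1* (0.160), a macrophage surface receptor gene, and *Tns2* (0.170). These likenesses are descriptions over the same 7 libraries.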

How the data were processed

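RNA-seq of dorsal midbrain from 3 control and 4 cKO mice was used. The authors enriched poly(A) RNA, made strand-specific libraries, aligned the reads to GRCm38.p5 with TopHat2 and Bowtie2, and counted them per gene with HTSeq; the deposited values are raw counts, 52636 genes per library, with no normalization. Reads assigned to no gene (30.98% to 38.18% of the total) were left out. Symbols, exon lengths, GC content and transcript sequences came from GENCODE vM21 of the same build (52489 identifiers matched); *Oip5os1*, *Norad* and *Cdr1os* were matched through RefSeq synonyms, and 2 listed symbols (*Pantr3*, *Dgcr5*) matched nothing.

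Counts were tested with edgeR 4.0.16 in R 4.3.3 (filterByExpr, minimum count 10 and total 15; TMM; glmQLFit with unadjusted deviances, glmQLFTest; condition as the only term). Benjamini-Hochberg adjusted p-values cover all genes tested, at a threshold of 0.05. CPM use TMM library sizes, and log2 CPM add a prior count of 2. The alternatives were DESeq2 1.42.0, limma-voom 3.58.1 with quality weights, other factors and filters, age as a covariate, single ages, a smooth correction for GC content and exon length (mgcv 1.9.3) and leaving out each library. On simulated counts with 200 changed genes, edgeR recovered 36 of 100 genes changed by 1 and 79 of 100 changed by 2 on the log2 scale, and called 4 unchanged genes. DESeq2 recovered 135 of the 200 and called 48 unchanged genes, which bears on calls made by DESeq2 alone. The simulated counts held no library like B8 and no trend with GC content or length, unlike the real ones. Replicates are separate mice, and p-values measure the spread between these mice. The members, lists and added settings were chosen with earlier results of these data known. The genes named are the members, *Brn3b*, the listed genes, neighbours and the 2 genes of most similar pattern; a few of these are not reported here.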

Additional observations from a re-analysis of the deposited data

Results flagged for a closer look

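*Oip5os1* in the cKO libraries was set apart by one library. B8, at 350 CPM, lay far below 722 to 786 CPM in B1, B7 and B9. Its gap to the nearest of these was 0.853 of the whole range, above Dixon's limit for 4 values. Of 11 groups of 4 values examined (the 10 members and their summed share of counts), this was the only one above the limit, and chance alone passes it in about 1 of 20 groups. B8 had as little *Brn3b* (10.6 CPM) as the other cKO libraries.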

How the results depend on the processing

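The count of members called in edgeR was 0 with all 7 libraries and 0 to 6 when 1 library was left out, the 6 arising only without B8; genes called ranged from 1 to 9867 and listed genes called from 0 to 71 in the same runs. limma-voom with quality weights on all 7 libraries, in which B8 had a weight of 0.167, called 10583 genes, 6 members and 72 listed genes. DESeq2 called 1994 genes and 16 listed genes, and without B8 9951 genes, 6 members and 70 listed genes. Controls against P2 cKO mice gave 10425 genes, 7 members and 82 listed genes, and P4 libraries alone gave 0 genes (edgeR; 245 at an unadjusted p below 0.05). The GC and length correction without B8 gave 7126 genes, 6 members and 54 listed genes. The order of levels per kilobase changed for 2 members with the longest transcript as length, and for 0 to 2 when 1 library was left out.

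The correction reversed *Malat1* (-0.19), *Snhg11* (-0.18), *Rmst* (-0.047), *Sox2ot* (-0.40) and *Tug1* (-0.070), and without B8 again (-0.30, -0.26, -0.12, -0.54 and -0.068). *Neat1*, at 0.01, was negative with the correction (-0.49, and -0.85 without B8), voom weights (-0.33), library totals (-0.017), P2 cKO mice (-0.53) and DESeq2 without B8 (-0.085), and ranged from -0.20 to 0.21 when 1 library was left out. The directions of *Oip5os1*, *Miat* and *Pantr1* did not change in any of the 21 alternatives. The causes were not tested. Low counts limit *Dlx6os1* alone, while depth also differed between the P2 cKO libraries and all others. No paired analysis was possible because the titles of control and cKO samples share no replicate numbers.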
